A study of Mus musculus with 6 samples.

Results

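The genes described here encode the contractile apparatus of smooth muscle: the actins Acta2 and Actg2, the actin-binding proteins Tagln, Cnn1 and Cnn2, the myosin chains Myl9 and Myh11, the tropomyosins Tpm1 and Tpm2, and the intermediate filament Des. They were taken by gene name from the arrays, with all their non-control probes, and make up 10 of the 16702 genes that were tested. The arrays compared 2 groups of primary epithelial-enriched cultures from C4HD, a progestin-dependent ductal mammary tumour carried by transplantation in female BALB/c mice given medroxyprogesterone acetate. One group of 3 cultures was transfected with the microRNA precursor pre-miR-16, and the other group of 3 with pre-miR-Control, a scrambled precursor that yields no known mammalian microRNA. Both received 30 nM of precursor with siPORT NeoFX for 48 h, and the labels call the 3 arrays of each group biological replicates. The labels do not say whether both groups came from the same tumour preparation. The epithelial fraction was enriched by repeated sedimentation that set fibroblasts aside before plating, and the labels do not give how many other cells remained.

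In smooth muscle, contraction is driven by myosin pulling on filaments of alpha and gamma smooth muscle actin, and it is switched on when the regulatory light chain of myosin is phosphorylated. Tropomyosin, calponin and transgelin lie along or bind these filaments, and desmin ties the contractile units to the rest of the cell. Outside blood vessels and gut, the same programme is used by the myoepithelial cells that squeeze milk from the mammary gland and by myofibroblasts, the contractile fibroblasts of wounds and tumour stroma. Many of these genes are switched on by serum response factor (SRF) with its partners of the myocardin family, through a promoter element called the CArG box, and by transforming growth factor beta.

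The mature microRNA of the transfected name is shown first, with the seed, bases 2 to 8, in capitals. RefSeq (GRCm38.p6) places identical copies at chr3:69009918-69009939 on the plus strand and chr14:61631936-61631957 on the minus strand.
mmu-miR-16-5p: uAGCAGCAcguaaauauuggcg

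Next are 4 array probes that the results return to, each 60 bases long, with coordinates on mm7 as the scanner files give them. All 4 genes lie on the minus strand. The Acta2 and Tagln probes are shown because their changes differ in size from those of the brightest probe of the same gene. The Tpm1 and Tpm2 probes are shown because they are the only member probes that share a stretch of sequence with each other, and the genes differ in the result: in the 33 bases in capitals, 27 are identical.
Acta2 probe A_51_P450957, chr19:33949738-33952992: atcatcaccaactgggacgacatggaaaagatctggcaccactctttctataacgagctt
Tagln probe A_52_P517683, chr9:45888956-45889015: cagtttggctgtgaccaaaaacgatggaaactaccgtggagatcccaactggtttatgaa
Tpm1 probe A_52_P532910, chr9:67064287-67065357: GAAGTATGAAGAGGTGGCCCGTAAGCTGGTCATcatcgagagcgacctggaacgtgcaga
Tpm2 probe A_52_P418477, chr4:43533092-43533242: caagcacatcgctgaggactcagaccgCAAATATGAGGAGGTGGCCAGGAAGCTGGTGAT

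The last set is promoter sequence, since the CArG box is the element these genes are best known for. RefSeq windows from 250 bases before to 50 bases after the start site were at hand for 7 of the 10 genes (Acta2, Cnn1, Cnn2, Myl9, Tpm1, Tpm2 and Des). An exact CArG box lay in the windows of Myl9 and Cnn2, 2 of 7, against 1.63% of all 32851 mouse windows. Allowing 1 base other than A or T in the core gave 3 of 7, with Acta2 added, against 9.98% of all windows. The box reads the same on both strands. A match is a description of these letters and no measured binding. The stretches below are 80 bases long and lie before the start site, with the match in capitals. The Myl9 box starts 161 bases and the Cnn2 box 56 bases before the start site. The Acta2 match shown, with 1 other base, starts 84 bases before it. Further matches with 1 other base, which are not shown, start 34 bases before it in Acta2 and 99 bases in Myl9.
Myl9, chr2:156775268-156775347, plus strand: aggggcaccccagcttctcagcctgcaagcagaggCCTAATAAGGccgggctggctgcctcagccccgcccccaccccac
Cnn2, chr10:79988509-79988588, plus strand: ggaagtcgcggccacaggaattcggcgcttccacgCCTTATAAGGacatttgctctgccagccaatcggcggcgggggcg
Acta2, chr19:34255413-34255492, minus strand: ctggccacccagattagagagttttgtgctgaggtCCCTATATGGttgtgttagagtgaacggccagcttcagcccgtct

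Levels are given as log2 of the processed spot signal relative to the 75th percentile of the same array, so that 0 is the signal of that percentile and each unit is a doubling. A change is the mean of the pre-miR-16 arrays minus the mean of the pre-miR-Control arrays, with its standard error (SE) from limma, and p-values are limma's, adjusted over all 16702 genes by Benjamini and Hochberg. A gene was called at an adjusted p under 0.05. The 75th percentile lay between 626 and 911 signal units, 57.2% to 64.0% of spots were well above background on each array, and no spot was saturated. Each probe binds with its own strength, so levels were not compared between genes. The arrays lay on 3 slides, of which slide 1 held replicate 1 of each group, slide 2 held pre-miR-16 replicate 2 with pre-miR-Control replicates 2 and 3, and slide 3 carried pre-miR-16 replicate 3 alone. Spike-in probes, which report control RNA added during labelling, stood at 3.64, 3.55 and 3.28 on the pre-miR-16 arrays and at 3.95, 3.86 and 3.80 on the pre-miR-Control arrays. Scaling on them instead of the percentile raised every change by 0.38.

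Most of the contractile genes rose by a wide margin with pre-miR-16, while Cnn2 and Tpm2 were not called. Of the 10 genes, 8 were called higher and 0 lower, against 16% of all genes called higher and 33.1% called lower, or 49.1% in either direction. The 3 pre-miR-16 values lay above all 3 pre-miR-Control values for 9 of the 10, against 19% of all genes. Acta2, Tagln, Cnn1 and Myl9 rose by 8-fold or more, as did 4.36% of all genes. The median change was 2.54, beside -0.20 for all genes tested. Myh11 passed the filter on dim probes only through the pre-miR-16 group. Of the 9 genes well above background on all 6 arrays, 7 were called higher. With that filter applied to all genes, 2007 of 15054 were called higher. More cells of a type and more RNA per cell cannot be told apart in these bulk cultures.

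Acta2, the alpha actin of smooth muscle and the usual marker of myofibroblasts, had levels of 7.76, 8.09 and 7.40 in the pre-miR-16 cultures and of 4.55, 4.58 and 4.03 in the pre-miR-Control cultures. Every pre-miR-16 value stood far above the highest control value. The change was 3.36 ± 0.23 (SE, limma adjusted p = 1.21e-04), or 10.3-fold, and it was 3.21 within slide 1 and 3.78 within slide 2. This probe was printed in 10 spots per array, and it lies at chr19:33942803-33942862 on mm7.

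Actg2, the gamma actin of visceral smooth muscle, had levels of 3.84, 4.33 and 3.60 in the pre-miR-16 cultures and of 1.94, 1.72 and 1.60 in the pre-miR-Control cultures. The groups did not overlap, and the lowest pre-miR-16 culture was replicate 3 as for Acta2. The change was 2.17 ± 0.21 (SE, limma adjusted p = 5.17e-04), or 4.50-fold, with 1.90 within slide 1 and 2.67 within slide 2.

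Tagln encodes transgelin, also called SM22 alpha, an actin cross-linking protein of smooth muscle. Its levels were 7.61, 7.83 and 7.35 in the pre-miR-16 cultures and 4.50, 4.36 and 3.99 in the pre-miR-Control cultures. The change was 3.31 ± 0.18 (SE, limma adjusted p = 5.12e-05), or 9.93-fold. The values within slides 1 and 2 were 3.11 and 3.66.

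Cnn1, the calponin that is largely restricted to smooth muscle, changed most among the contractile genes. It had levels of 6.09, 6.23 and 5.88 in the pre-miR-16 cultures and of 2.17, 2.17 and 1.75 in the pre-miR-Control cultures. The spread within each group was small beside the gap between them. The change was 4.04 ± 0.16 (SE, limma adjusted p = 1.55e-05), or 16.4-fold, with 3.92 within slide 1 and 4.27 within slide 2.

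Cnn2, the calponin that many non-muscle cells also make, moved much less. Its levels were 4.24, 4.65 and 4.13 in the pre-miR-16 cultures and 4.02, 3.94 and 3.98 in the pre-miR-Control cultures. The groups did not overlap, but the lowest pre-miR-16 value lay close to the highest control value. The change of 0.36 ± 0.15 did not pass the test (limma adjusted p = 0.0909), and its 95% interval ran from 0.998-fold to 1.65-fold. With spike-in scaling it was 0.74 and passed, with a limma adjusted p of 0.0148, which made 9 of the 10 genes called higher, against 21.9% of all genes. Of the 2 genes with an exact CArG box in the window shown above, Myl9 was thus called and Cnn2 was not.

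Myl9, the regulatory light chain that is phosphorylated to start smooth muscle contraction, had levels of 6.66, 6.93 and 6.56 in the pre-miR-16 cultures and of 3.10, 3.20 and 2.66 in the pre-miR-Control cultures. The groups were far apart. The change was 3.73 ± 0.18 (SE, limma adjusted p = 2.90e-05), or 13.3-fold, with 3.56 within slide 1 and 4.01 within slide 2.

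Myh11, the smooth muscle myosin heavy chain and the most lineage-restricted gene of the group, was dim. It had levels of -2.56, -1.76 and -2.50 in the pre-miR-16 cultures and of -3.40, -5.30 and -4.92 in the pre-miR-Control cultures, and stood clear of background in all 3 pre-miR-16 cultures and in 2 of 3 controls. The groups did not overlap, and pre-miR-Control replicate 1 stood well above the other controls. The change was 2.27 ± 0.51 (SE, limma adjusted p = 0.0130), or 4.81-fold with a 95% interval from 2.03-fold to 11.4-fold. It was 0.84 within slide 1 and 3.35 within slide 2, and with slide as a block the limma adjusted p was 0.0530. With normexp background correction the change was 1.02.

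Tpm1, an alpha tropomyosin made in muscle and, as other isoforms, in most cells, had levels of 6.40, 6.85 and 6.25 in the pre-miR-16 cultures and of 5.72, 5.62 and 5.72 in the pre-miR-Control cultures. All pre-miR-16 values were higher, by a margin that was modest beside the actins. The change was 0.81 ± 0.17 (SE, limma adjusted p = 0.00899), or 1.76-fold, with 0.68 within slide 1 and 1.18 within slide 2.

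Tpm2, the beta tropomyosin, had levels of 6.19, 6.56 and 6.0 in the pre-miR-16 cultures and of 6.38, 6.38 and 6.14 in the pre-miR-Control cultures. These groups overlapped. The change was -0.05 ± 0.17 (SE, limma adjusted p = 0.830), with a 95% interval from 0.731-fold to 1.28-fold, and its sign differed between slides at -0.19 and 0.31. It was 0.34 with spike-in scaling and did not pass there either.

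Des encodes desmin, the intermediate filament of muscle cells and of some pericytes and myofibroblasts. It was dim, with levels of -1.64, -1.08 and -1.80 in the pre-miR-16 cultures and of -3.59, -4.30 and -5.04 in the pre-miR-Control cultures. The pre-miR-16 values were all higher, and the control values were widely spread. The change was 2.81 ± 0.39 (SE, limma adjusted p = 0.00212), or 6.99-fold. It was 1.95 within slide 1 and 3.59 within slide 2, and 1.57 with normexp background correction, where it still passed.

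**Figure D1:**
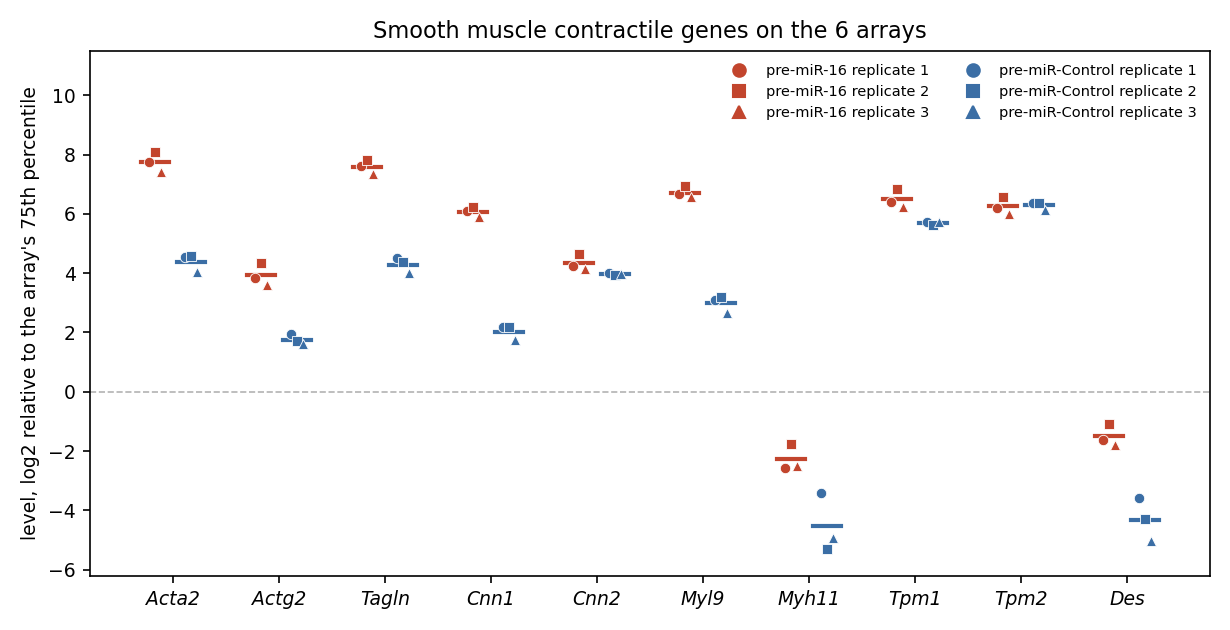
Level of each contractile gene at its brightest probe (y axis, log2 relative to the array's 75th percentile, dashed line at 0) on the 3 pre-miR-16 arrays (red) and the 3 pre-miR-Control arrays (blue), with bars at the group means and a marker shape per replicate. The groups are separate for 9 of the 10 genes and overlap for Tpm2, and Myh11 and Des lie below 0 in both groups.

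The genes also moved together between cultures of the same group. Pre-miR-16 replicate 2 was the highest of its group for 10 of the 10 genes, while it was the highest for 39.8% of all genes tested. This was not particular to the contractile genes. Most measured markers of fibroblasts and macrophages, described below, were also highest in pre-miR-16 replicate 2. The exceptions, named after their values were seen, were Col6a1, Dcn, S100a4 and Cd14. Pre-miR-16 replicate 3 was the lowest for 9 of the 10, against 28.2% of all genes. Among the controls, replicate 3 was the lowest for 7 of the 10, against 38.5% of all genes. These shares are descriptions of 6 arrays and were not tested. Without pre-miR-16 replicate 2, the same number of genes, 8 of 10, was called higher.

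The arrays held 18 probes for the 10 genes, and 17 passed the filter. Of these, 13 were called higher and 0 lower, against 15.2% of all kept probes called higher. At 15 the pre-miR-16 values lay above all control values. That share was taken over genes only, where it was 19%, and not over all kept probes. For 6 genes there was a single probe, so agreement between probes could be read for Acta2, Tagln, Tpm1 and Tpm2 only. The probe that did not pass, A_52_P644232, is assigned to Acta2 through a separate complementary DNA and was above background on no array.

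The 4 kept probes of Acta2 were all called higher, with different sizes. Of the 3 that lie near each other at the far end of the gene, the brightest probe and A_52_P210078 (chr19:33942440-33942499) gave 3.36 ± 0.23 and 3.71 ± 0.19. The third of them, A_52_P239556, gave 2.47 ± 0.51, or 0.89 with normexp and 1.88 without pre-miR-Control replicate 3. It was dim, above background on 2 of 3 pre-miR-Control arrays, and so passed the filter only through the pre-miR-16 group.

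The last is A_51_P450957, whose 60 bases, printed above, are spread over 3255 bases of the genome and so join separate exons. It had levels of 5.26, 5.68 and 4.99 in the pre-miR-16 cultures and of 4.15, 3.81 and 3.76 in the pre-miR-Control cultures. Its change was 1.40 ± 0.20 (SE, limma adjusted p over probes = 0.00271), or 2.64-fold. On each array the brightest probe was compared with it: the difference was 2.44 ± 0.05 in the pre-miR-16 cultures and 0.48 ± 0.25 in the pre-miR-Control cultures (SD, n = 3 each; exact permutation p = 0.10, two-sided, adjusted p = 0.233 over 7 probe pairs). That p is the smallest that 3 against 3 arrays can give. The 7 pairs were chosen after the values were seen, so their p-values only describe these differences. At the 3 Acta2 probes above background on all 6 arrays, the change ran from 2.64-fold to 13.1-fold. Probe sequences were compared only with other probes of the array. Whether A_51_P450957 also binds transcripts of other actins was not tested, nor was the cause of its smaller change.

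Tagln rose at both probes, by 3.31 ± 0.18 at the brightest and by 3.99 ± 0.20 at A_52_P517683, the second probe printed above. Tpm1 was higher at all 3 probes without overlap between the groups. Its change was 0.81 ± 0.17 at A_52_P44949 and 0.68 ± 0.16 at A_52_P532910, and 0.53 ± 0.23 at A_51_P325173, which did not pass (limma adjusted p over probes = 0.106). The call at A_52_P532910 did not hold without pre-miR-Control replicate 2 or without pre-miR-Control replicate 3.

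Tpm2 changed by -0.05 ± 0.17 and 0.06 ± 0.14 at its 2 probes, with overlap between the groups at each. The Tpm1 and Tpm2 probes that share the 33 aligned bases in capitals above gave 0.68 and -0.05. On bright spots the scanner software used a second scan at low gain, scaled up: on the 3 pre-miR-16 arrays alone for the brightest probes of Acta2, Tagln, Cnn1 and Myl9, and on all 6 arrays for Tpm2. Counted over the 6 arrays, it also used that scan on 3 spots of A_51_P450957 of Acta2 and 2 of A_52_P517683 of Tagln. For Tpm1 it did so on 6 spots of A_52_P44949 and 3 of A_52_P532910. At A_52_P210078 of Acta2, Actg2, Cnn2, Des and Myh11 it used none.

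**Figure D2:**
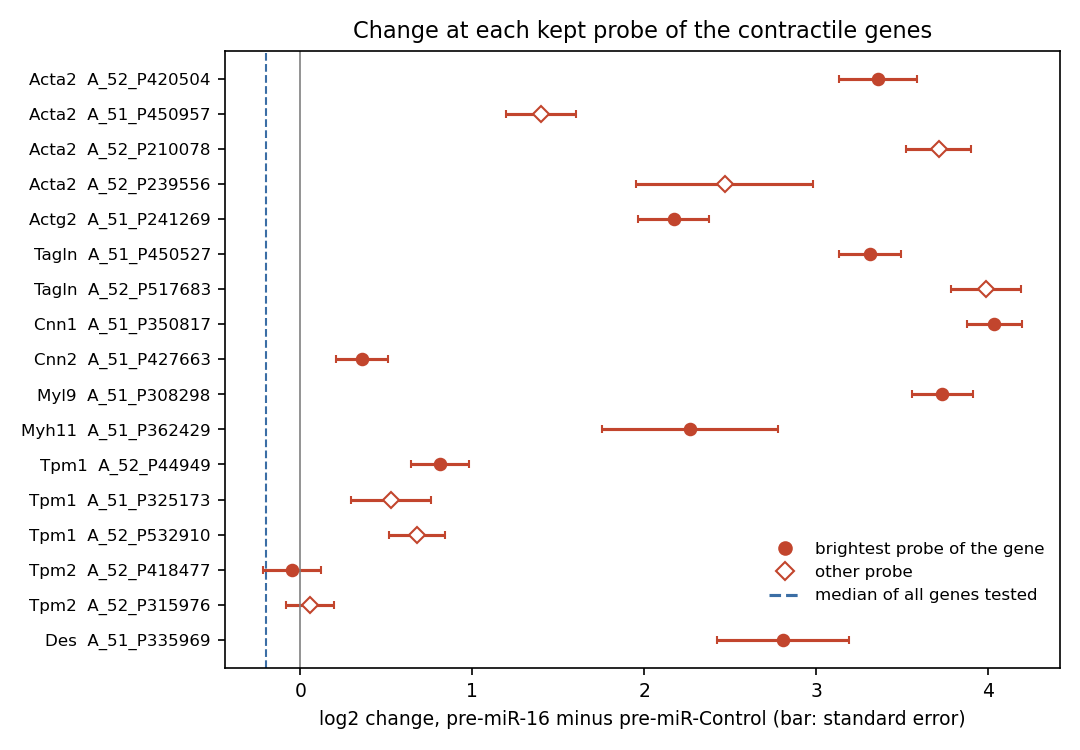
Log2 change, pre-miR-16 minus pre-miR-Control, with its standard error at each of the 17 kept probes of the contractile genes. Filled circles are the brightest probe of each gene, open diamonds the others, and the dashed line is the median of all genes tested (-0.20). The Acta2 probes run from 1.40 to 3.71, and both Tpm2 probes lie at 0 within their errors.

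Within families, members were set against related genes, most of them widely used and some of them other members, such as Actg2 and Tpm2. The measure was the difference of their levels on the same array, which a constant scaling of an array cannot move. Actg1 had no probe of that name, which left 10 pairs, and adjusted p-values are over these 10. Cnn1 over Cnn2 stood at 1.85, 1.58 and 1.76 in the pre-miR-16 cultures and at -1.85, -1.76 and -2.23 in the pre-miR-Control cultures. The gap between the groups was 3.67 (exact permutation p = 0.10, adjusted p = 0.125). All exact p-values here are two-sided, and 0.10 is the smallest that 3 against 3 can give, so none of these pairs could pass.

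The gaps of the other muscle-restricted genes over widely used ones ran from 2.20 to 4.35. They were 4.35 for Cnn1 over the calponin Cnn3, 3.53 for Tagln over Tagln2, 3.49 for Acta2 over the cytoplasmic actin Actb, 4.08 for Myl9 over the light chain Myl12b, and 2.20 for Myh11 over the non-muscle heavy chain Myh9 (0.91 with normexp). In each of these pairs all pre-miR-16 arrays lay above all pre-miR-Control arrays. The gap was 1.19 for Acta2 over Actg2 and 0.86 for Tpm1 over Tpm2, also without overlap.

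The remaining 2 pairs overlapped, and the share of pairs without overlap was not taken over other genes. Tpm2 over Tpm4 differed by 0.30 (exact permutation p = 0.20), and Des over Vim by -0.53 (exact permutation p = 0.30), or by -1.74 with normexp. Vim, the intermediate filament of mesenchymal cells, itself rose by 3.34 ± 0.11 (SE, limma adjusted p = 1.19e-05). Of the other relatives, Actb changed by -0.13 ± 0.34, Tagln2 by -0.22 ± 0.15 and Myh9 by 0.06 ± 0.09, and none of these passed. Cnn3 (-0.31 ± 0.10), Myl12b (-0.34 ± 0.09) and Tpm4 (-0.34 ± 0.09) passed as lower, but were above 0 with spike-in scaling and did not pass there. Quantile normalization, median centring, no filter on dim probes, the replicate block and the slide block also ended these 3 calls, array weights that of Cnn3 and the series matrix that of Myl12b. Nor did Cnn3 pass when any 1 of the 6 arrays was left out, Myl12b without pre-miR-16 replicate 3 or pre-miR-Control replicate 2 or 3, or Tpm4 without these or pre-miR-16 replicate 1. Tagln2 passed as lower without pre-miR-16 replicate 2 (-0.36) and with array weights (-0.31). Myh9 passed as higher in the series matrix (0.24, limma adjusted p = 0.0429).

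**Figure D3:**
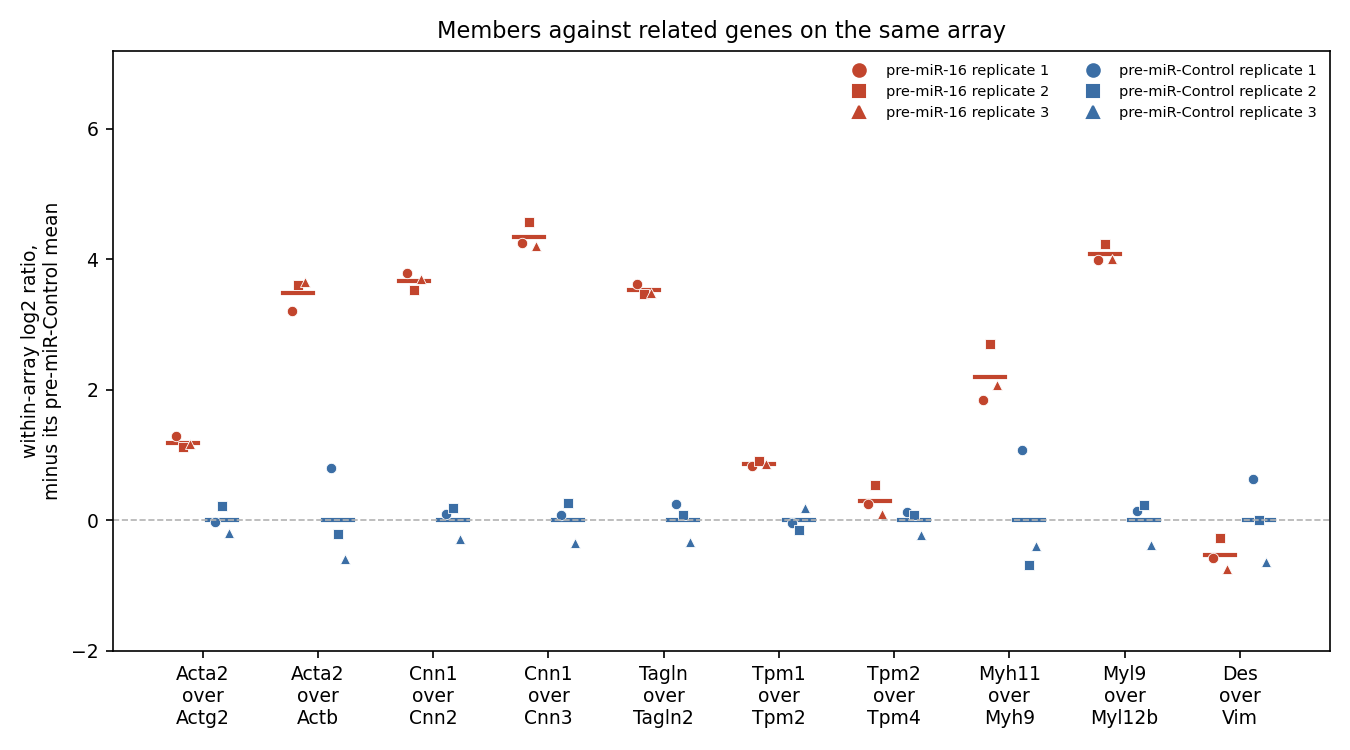
Within-array log2 ratio of each member to a related gene (y axis, shifted so that the pre-miR-Control mean is 0) on the 3 pre-miR-16 arrays (red) and the 3 pre-miR-Control arrays (blue), with bars at group means. Tpm2 over Tpm4 and Des over Vim overlap between the groups, and the other 8 pairs do not.

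Beyond the contractile genes, a list of 20 other smooth muscle genes was measured at 19. Of these 15 were called higher and 0 lower, with a median change of 1.01, and Itga8 did not pass the filter. Mylk, Kcnmb1 and Mustn1 passed it only through the pre-miR-16 group, and of the 16 genes above background on all 6 arrays 12 were called higher (median 0.72). Synpo2, which encodes an actin-bundling protein of muscle, rose by 4.40 ± 0.14 (2.76 with normexp), Lmod1, an actin filament nucleator of smooth muscle, by 3.64 ± 0.27, Fhl1, a LIM-domain protein of muscle, by 2.75 ± 0.16, and Ppp1r12b, a targeting subunit of the phosphatase that acts on myosin, by 1.11 ± 0.11. The counts of this and the other lists stand beside 16% of all genes called higher and 33.1% called lower. In the 13 measured non-muscle relatives, 1 was higher, 4 were lower and 8 were not called, with a median of -0.13. Vim was the 1 that rose, and Myh14, a non-muscle myosin heavy chain, fell by 0.75 ± 0.11, but with spike-in scaling was at -0.37 and did not pass.

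Striated muscle genes were measured at 14 of 25. Of the measured genes 3 were higher and 5 lower (median -0.37), beside 16% of all genes higher and 33.1% lower. The actins of this list rose: Actc1, the cardiac alpha actin, by 3.93 ± 0.27 and Acta1, the skeletal alpha actin, by 1.35 ± 0.22. The other gene called higher was the troponin Tnni1, named after its values were seen, at 1.32 ± 0.22 (SE, limma adjusted p = 0.00424). Actc1 stood at 4.21, 4.87 and 3.94 in the pre-miR-16 cultures and at 0.60, 0.53 and 0.09 in the pre-miR-Control cultures, in the same order of arrays as Acta2 in the pre-miR-16 group. The fast light chain Mylpf and the fast troponin Tnnc2 fell, by 0.94 ± 0.11 and 0.67 ± 0.11, but Tnnc2 was at -0.29 with spike-in scaling and did not pass there. Myod1 and Myog, which specify skeletal muscle, did not pass the filter, with Myod1 above background on 1 pre-miR-Control array and Myog on none.

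Of 27 listed regulators of this programme, 23 were measured. Of these, 4 were higher, 3 lower and 16 not called (median -0.02), beside 16% of all genes higher and 33.1% lower. The ligands Tgfb1 and Tgfb3 rose by 1.50 ± 0.12 and 1.46 ± 0.11. The signal carriers Smad2 and Smad4 fell by 0.73 ± 0.10 and 0.75 ± 0.10, but with spike-in scaling their changes were -0.34 and -0.36 and did not pass. The transcripts of the factors themselves did not pass the test: Srf changed by -0.17 ± 0.09, Mrtfa by -0.02 ± 0.10 and Mrtfb by -0.17 ± 0.19, and Myocd was above background on no array. Srf, Mrtfa, Mrtfb and Myocd are named outside the rule for naming genes, after their values were seen.

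Among genes known to respond to SRF or to transforming growth factor beta, 13 of 16 were called higher and 0 lower, with a median of 1.10. Tgfbi, an extracellular matrix protein named for its induction by that factor, rose by 5.73 ± 0.33, or by 4.19 with normexp. Postn, a matrix protein of activated fibroblasts, rose by 3.81 ± 0.20, and Ccn2, the connective tissue growth factor, by 3.42 ± 0.13.

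The contractile genes are used as markers of both myoepithelium and myofibroblasts, and lists for these and other cell types were read beside them. For myoepithelial and basal cells, 2 of 14 measured markers were higher, 4 lower and 8 not called (median -0.12). Of all genes, 16% were higher and 33.1% lower. Sparc and Egfr, which stromal cells also express, rose by 4.02 ± 0.23 and 3.26 ± 0.18. The basal keratins Krt14 and Krt17 fell by 1.95 ± 0.36 and 1.83 ± 0.14, and the laminin-binding integrin Itga6 fell by 0.81 ± 0.09, which did not pass with spike-in scaling (-0.43). Krt5, the partner of Krt14, changed by 0.24 ± 0.27 and did not pass. Trp63, the master factor of basal cells, and Oxtr, the oxytocin receptor of myoepithelium, were above background on no array. The log2 of the summed level of the list was 7.34 to 7.52 in the pre-miR-16 cultures and 7.55 to 7.63 in the pre-miR-Control cultures. Such a sum follows its brightest probes. Here the largest part was Krt17 in the pre-miR-Control cultures (mean level 6.65) and Sparc in the pre-miR-16 cultures (mean level 5.97). The near-equal sums therefore hide the opposite changes of these genes.

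For fibroblasts, 17 of 19 measured markers were called higher and 0 lower, with a median of 3.94. Fap, Lum and Twist2 passed the filter only through the pre-miR-16 group, and of the 16 markers above background on all 6 arrays 14 were called higher. The 2 not called were Dcn, a proteoglycan of fibroblast matrix, and S100a4, both named after their values were seen. Dcn, which contributes the largest part of the summed level of the list, stood at 8.77, 8.65 and 8.39 in the pre-miR-16 cultures and at 8.79, 8.56 and 8.68 in the pre-miR-Control cultures (change -0.07 ± 0.13, limma adjusted p = 0.676). The log2 of their summed level was 9.30 to 9.63 in the pre-miR-16 cultures and 8.64 to 8.87 in the pre-miR-Control cultures. Col1a1 and Col1a2, the chains of type I collagen, rose by 3.94 ± 0.12 and 4.16 ± 0.13, Col5a1 by 4.10 ± 0.13 (2.93 as the mean of its probes), and the receptor Pdgfrb by 4.21 ± 0.15. Pdgfra, the other such receptor, rose by 0.85 ± 0.15, or by 0.27 without passing under normexp. Col1a1, Col1a2 and Pdgfrb were well above background on all 6 arrays. The 17 called markers moved with the contractile genes, and their part in the result was not tested.

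Markers of macrophages also moved with them. Of 14, 13 were called higher and 0 lower (median 4.30). The marker not called was Csf1r, named after its values were seen. It was above background on all 6 arrays and changed by -0.51 ± 0.26 (SE, limma adjusted p = 0.144). Since 8 of the 14 passed the filter only through the pre-miR-16 group, the count among the 6 above background on all 6 arrays is 5 higher (median 2.65). The log2 of their summed level was 7.76 to 8.05 in the pre-miR-16 cultures and 4.02 to 4.46 in the pre-miR-Control cultures. By mean level the largest part of that sum was Lyz2 in the pre-miR-16 cultures (7.60) and Cd14 in the pre-miR-Control cultures (3.21). The part of the macrophage markers in the result was not tested either. Cd68, a lysosomal protein of macrophages, rose by 3.09 ± 0.22 and Fcer1g, a chain of their Fc receptors, by 4.0 ± 0.23 (2.24 and 3.30 with normexp). Adgre1 and C1qc rose by 7.55 ± 0.35 and 6.06 ± 0.39, or by 5.70 and 4.14 with normexp, and were above background on 2 of 3 pre-miR-Control arrays. Ptprc, the pan-leukocyte marker CD45, was above background on no pre-miR-Control array and was at least 12.0-fold higher (limma adjusted p = 1.29e-05), where the bound sets the dim arrays at their lowest signal well above background. With normexp its change was 1.81, or 3.50-fold, which lies under that bound.

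Vascular cells had fewer measured markers. Of 7 mural markers, 2 were higher and 1 lower, and the log2 of their summed level was 3.24 to 3.59 in the pre-miR-16 cultures and 2.79 to 3.28 in the pre-miR-Control cultures. Cspg4 (NG2) rose by 3.58 ± 0.16 and Anpep by 2.64 ± 0.30 (1.82 with normexp), and Notch3 fell by 0.58 ± 0.14 but was at -0.20 with spike-in scaling and did not pass there, nor without replicate 1 of either group. Rgs5, the defining marker of pericytes, changed by -1.74 ± 0.72 and did not pass (limma adjusted p = 0.0884), but passed as lower without pre-miR-16 replicate 2 (-2.54), with array weights (-2.26), with median centring (-1.78) and with the replicate block (limma adjusted p = 0.0493).

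Of 4 measured endothelial markers 1 was higher, Eng (3.01 ± 0.20), which is not specific to endothelium, and 0 were lower. The log2 of their summed level was 4.07 to 4.80 in the pre-miR-16 cultures and 4.49 to 4.67 in the pre-miR-Control cultures. Cdh5, Kdr, Tek and Tie1 were above background on no array, and Pecam1 on 1 pre-miR-Control array. Emcn did not pass the filter and was above background on 2 pre-miR-16 arrays and no pre-miR-Control array.

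Luminal epithelial markers, those of the labelled cells, were called lower at 12 of 16 and higher at 0 (median -0.66), while Prom1 and Tspan8 did not pass the filter. With spike-in scaling 4 of the 16 were called lower (median -0.27), against 1029 of all 16702 genes with that scaling. The log2 of their summed level was 9.55 to 9.83 in the pre-miR-16 cultures and 10.3 to 10.4 in the pre-miR-Control cultures. Krt8 and Krt18, the simple epithelial keratins, fell by 1.19 ± 0.11 and 0.95 ± 0.11 and Epcam by 0.76 ± 0.11, which did not pass with spike-in scaling (-0.37). Elf5, a factor of milk-secreting cells, fell by 4.16 ± 0.41, or by 2.57 with normexp, and stood above background on only 1 array with pre-miR-16. Their part in the change of the contractile genes was not tested.

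**Figure D4:**
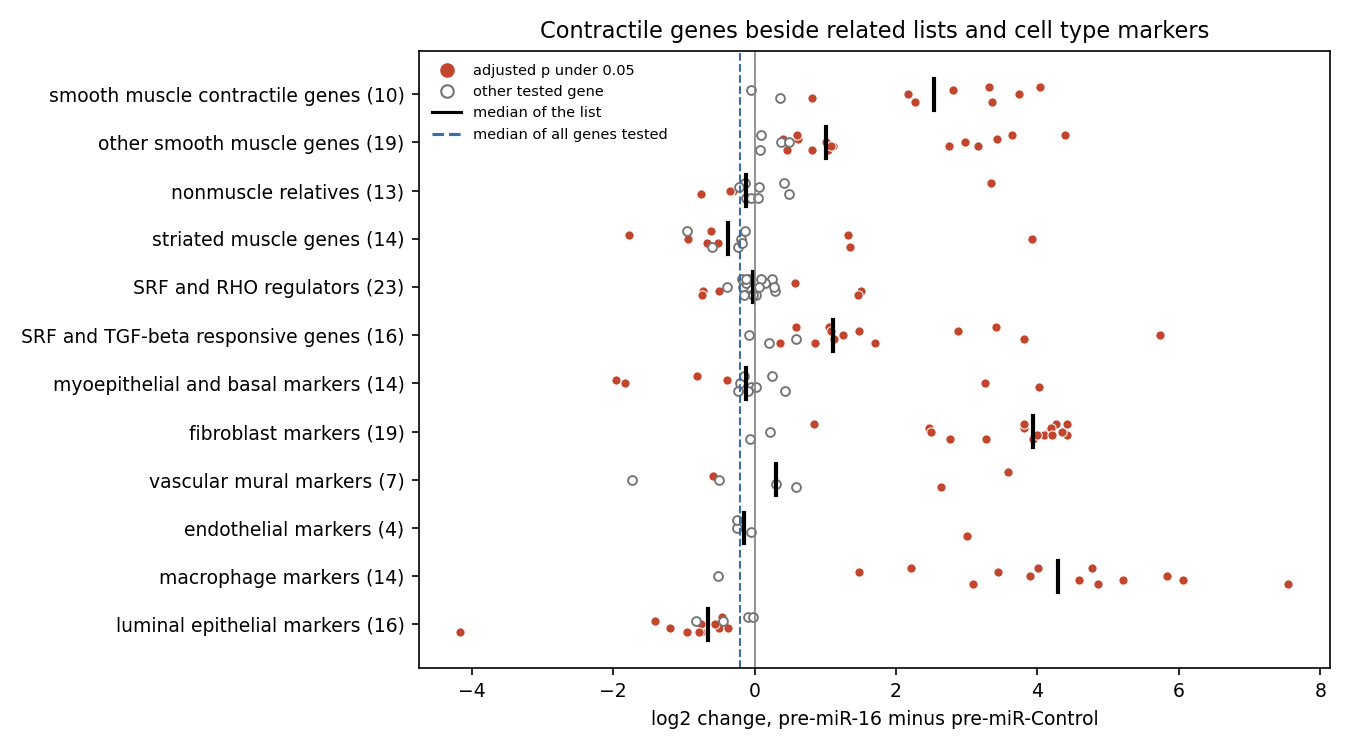
Log2 change, pre-miR-16 minus pre-miR-Control, of each measured gene (points, red where the limma adjusted p is under 0.05) in the contractile list and in related lists, with the number measured in brackets, the median of each list as a black bar and the median of all genes as a dashed line. Contractile, fibroblast and macrophage lists have medians of 2.54, 3.94 and 4.30, while the myoepithelial and basal list has a median of -0.12.

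Outside the list, the genes most like Acta2 over the 6 arrays by Pearson's r were the cytokine Il1b, the fibroblast and lymphocyte surface protein Thy1, the macrophage protein Cd68, the interferon-induced Gvin1, and 1 probe with no gene symbol (A_51_P114407), each with r between 0.999 and 1.00. Thy1 stood at 4.45, 4.78 and 4.16 in the pre-miR-16 cultures and at 0.90, 0.78 and 0.27 in the pre-miR-Control cultures, with the order of arrays that Acta2 had in the pre-miR-16 group. Il1b changed by 4.84 ± 0.32, Gvin1 by 3.75 ± 0.23 and the unnamed probe by 3.05 ± 0.18, or by 3.48, 3.02 and 2.41 with normexp. The 6 arrays fall into 2 groups, which any gene that differs between the groups shares, and 1513 of 16692 genes had r over 0.95, so these values only describe likeness.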

How the data were processed

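Intensity per spot was read from the deposited scanner files. Per the file headers, it was made with Agilent Feature Extraction 9.5.3.1, which subtracts background and removes spatial trends within an array and does nothing between arrays. The authors' deposited series matrix holds log2 values of unstated normalization and served as an alternative. With data.table (1.17.8) and limma 3.58.1 in R 4.3.3, control and outlier spots were dropped, the spots of a probe were averaged as log2, and the 75th percentile of each array was subtracted. Probes had to have a share of 0.50 or more of their spots well above background on every array of a group (23827 of 41174 probes). The brightest kept probe stood for a gene in lmFit and eBayes. The number of arrays limits the precision. Exact permutation tests, two-sided, used within-array differences. The groups came from the labels. Replicate numbers were not taken as pairs: same-numbered arrays correlated at -0.088, -0.026 and -0.0028 once group means were removed. The fit was tested on simulated data. The members, gene lists and alternatives were chosen with earlier results of these data known. Named are all 10 members, their relatives, up to 4 called genes per list with the smallest p, set defining markers and the 5 genes most like Acta2; 1 result that this rule selects is not reported here. Promoter and microRNA sequences are RefSeq's (GRCm38.p6), and probe coordinates are those of the files (mm7). Alternatives changed the scaling (quantile, median, spike-in probes), the background correction (normexp, offset 50), the source (series matrix), the filters on dim and outlier spots, the summary of a gene's probes, the fit (trend with robust, array weights, blocks for replicate or slide) and the arrays used, each left out in turn.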

Additional observations from a re-analysis of the deposited data

How the results depend on the processing

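The number of contractile genes called higher ran from 7 to 9 of 10 over 20 alternatives, and 0 were called lower in each. It was 7 with slide as a block and with the filter that asks for all 6 arrays, which Myh11 does not pass, and 9 with spike-in scaling, normexp, the series matrix and array weights, which added Cnn2. The log2 change of Cnn2 was 0.40 with normexp, 0.46 in the series matrix and 0.28 with array weights. Acta2, Actg2, Tagln, Cnn1, Myl9, Tpm1 and Des passed in each of the 20, with a highest adjusted p of 0.0379 (Tpm1). Dim genes and probes had smaller changes under other background corrections. Des changed by 1.57 with normexp and 1.62 in the series matrix, and Myh11 by 1.02 and 1.08. A_52_P239556 of Acta2 gave 0.89 and 0.97, Ptprc 1.81 and 1.80, Synpo2 2.76 and 2.82, Tgfbi 4.19 and 4.29, Il1b 3.48 and 3.58, and Elf5 -2.57 and -2.50. As the mean of its kept probes Acta2 changed by 2.73. With the replicate block, 8 contractile genes were called higher as without it, and 14 of their probes instead of 13, since A_51_P325173 of Tpm1 passed. Leaving out each array gave 8 genes each time and 12 or 13 probes.
Some changes near 0 turned sign. Tpm2, at its brightest probe A_52_P418477, was at 0.058 with quantile normalization, 0.34 with spike-in scaling, 0.015 with normexp, 0.092 with slide as a block and between -0.20 and 0.077 with 1 array left out, and at 0.0038 as the mean of its probes. Its probe A_52_P315976 was at -0.052 with array weights and between -0.069 and 0.14 with 1 array left out. Actb was at 0.26 with spike-in scaling, 0.22 with slide as a block and between -0.45 and 0.13 with 1 array left out. With spike-in scaling Cnn3 was at 0.072, Myl12b at 0.038, Tagln2 at 0.17 and Tpm4 at 0.040, and 8 genes of the related lists were called lower instead of 29, since that scaling raises each change alike. Krt5 was at -0.057 with normexp, and Myh9 at -0.31 as the mean of its probes; the cause was not tested. In the series matrix, the column named for pre-miR-16 replicate 1 tracks the scanner values of replicate 2 and the reverse, which leaves the group comparison as it is. Over all genes, 1029 were called lower with spike-in scaling, against 5533.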
